A study of Mus musculus with 17 samples.

Results

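The step from naive B cell (nB) to germinal center B cell (GCB) was followed in chromatin accessibility of Dnmt3-sufficient (C) mice. It was measured by ATAC-seq, in which the Tn5 transposase inserts adapters into accessible DNA. The comparison used 5 of the 16 libraries with values in the series, 3 from C nB and 2 from C GCB, and all 66177 accessible regions, with no region chosen by its values. C mice were Dnmt3afl/flDnmt3bfl/fl on the B6;129S4-Dnmt3atm3.1Enl Dnmt3btm5.1Enl/Mmnc background, so they carried the floxed alleles without Cre. The paper's methods give a different allele designation for Dnmt3a. KO mice were littermates with the same floxed alleles and a Cre expressed in B cells. Both genotypes were sampled for nB, sorted from lymph nodes as B220+ Fas- GL7- cells of unimmunized mice. GCB were B220+ Fas+ GL7+ cells binding phycoerythrin (PE), from lymph nodes taken 30 days after PE immunization. The 3 C nB libraries were from males, and the C GCB libraries were from females (replicate 1) and males (replicate 2). The paper states that each GCB sample pooled 2 mice, and it mentions no pooling for nB. Immunization, pooling and cell type cannot be told apart here. Nothing in the labels ties a C nB library to a C GCB library.

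Naive follicular B cells are quiescent and recirculate through lymphoid organs, guided by receptors such as CCR7 and S1PR1. In the germinal center, activated B cells divide rapidly, mutate their immunoglobulin genes, and are selected for affinity under the control of the repressor BCL6. Regulatory DNA that becomes accessible to transposase is often bound by transcription factors in place of nucleosomes.

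Reads in regions numbered 4104875, 5308068 and 5373170 in the C nB libraries and 2273600 and 2134829 in the C GCB libraries. Values (RPPM) are the reads of a region scaled to the same total of reads in regions for each library. In a sorted population, a region open in fewer cells and a region less open in each cell cannot be told apart. A count of 3 reads equalled 0.731, 0.565 and 0.558 RPPM in C nB and 1.32 and 1.41 RPPM in C GCB, so low levels were measured more coarsely in GCB. Across regions, Spearman's rank correlation lay between 0.966 and 0.974 for pairs of C nB libraries, was 0.922 for the C GCB pair, and lay between 0.740 and 0.749 for pairs of different cell types. These describe regions, which are not independent replicates. Mitochondrial DNA took 3.87%, 4.22% and 3.85% of the reads in C nB and 8.60% and 8.76% in C GCB. Its part in the differences below was not tested beyond a rescaling without it.

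The sorted populations were checked at defining B cell genes. Promoter regions of Cd79a, Cd79b, Ms4a1 and Pax5 had reads in all 5 libraries, and none of the 4 was called. Ms4a1, which encodes CD20, stood at 80.2 ± 3.5 RPPM in C nB (SD, n = 3) and 85.7 ± 3.9 RPPM in C GCB (SD, n = 2). Cd79a stood at 38.0 ± 5.3 and 27.9 ± 1.6 RPPM, Cd79b at 27.7 ± 0.84 and 19.2 ± 3.3 RPPM, and Pax5 at 40.3 ± 4.7 and 24.3 ± 0.76 RPPM. The log2 differences of Cd79b and Pax5 were -0.52 and -0.70. Of the GCB markers, the promoters of Fas, S1pr2, Rgs13 and Mybl1 were accessible in both and not called. Fas was also a sorting marker.

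More regions opened than closed on entry to the germinal center. Of 66177 regions, 9427 (14.2%) were more accessible in C GCB and 5602 (8.47%) less accessible, by limma on log2(RPPM + 1), where a call required an adjusted p no higher than 0.01 and a log2 difference of at least 1. This scale understates changes of regions with few reads. A region is called opened or closed below in this sense. Of the 15029 called regions, 62.7% opened. Quantile normalization evened the split to 7418 opened and 7053 closed, or 51.3% opened, and moved the median log2 difference of all regions from 0.05 to -0.06. The size of the excess of opened regions therefore depended on scaling. With a pseudocount of 5 RPPM, which shrinks differences at low levels, 4324 opened and 2488 closed.

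The typical opened region went from a low to a moderate level. Its median was 1.46, 1.32 and 1.49 RPPM in the C nB libraries and 9.24 and 8.43 RPPM in the C GCB libraries. Closed regions had medians of 14.9, 14.3 and 14.5 RPPM in C nB and 4.40 and 3.75 RPPM in C GCB. The C nB mean was below 1 RPPM in 39.9% of opened regions, whereas the C GCB mean was below 1 RPPM in 9.78% of closed regions. Low regions were in general higher in GCB, with medians of 0.718 RPPM in C nB and 1.35 RPPM in C GCB among non-promoter regions with a mean under 2 RPPM, and the part of this in the difference was not tested. Changes of at least 2 on the log2 scale made up 35.9% of opened regions and 14.4% of closed ones. A further 4063 regions passed the adjusted p but fell by less than 1 on the log2 scale, and 1341 rose by less than 1.

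Promoters were called opened less often than other regions. Promoter-annotated regions numbered 14332, of which 8.88% opened and 6.99% closed, with a median log2 difference of -0.18. In introns, 15.6% of 23479 regions opened and 8.45% closed, with a median of 0.16. In intergenic DNA, 15.5% of 23242 regions opened and 9.85% closed, with a median of 0.12. Exonic regions numbered 5124, with 17.1% opened and 6.40% closed. The SDs of the library medians within C nB and C GCB, combined as the root of their summed squares, were 0.030 for promoters, 0.22 for introns and 0.19 for intergenic regions on the log2 scale. After quantile normalization the median log2 differences were -0.076, -0.054 and -0.075, so the contrast in medians depended on scaling. Without C GCB replicate 1 or 2 in turn, the median was 0.068 or 0.25 for introns and 0.012 or 0.22 for intergenic regions. The order of the closed shares was not stable either. Without C GCB replicate 2, they were 6.48% of promoters, 5.26% of introns and 6.38% of intergenic regions. Promoters also closed more often than introns with DESeq2 (7.84% and 7.59%), limma-voom (6.96% and 6.92%) and without C nB replicate 2 (7.04% and 6.86%). The same held at pseudocounts of 0.1 RPPM (7.21% and 6.48%) and 5 RPPM (3.64% and 3.49%). Promoters held 13.5% of all opened and 17.9% of all closed regions while making up 21.7% of the regions measured.

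**Figure D1:**
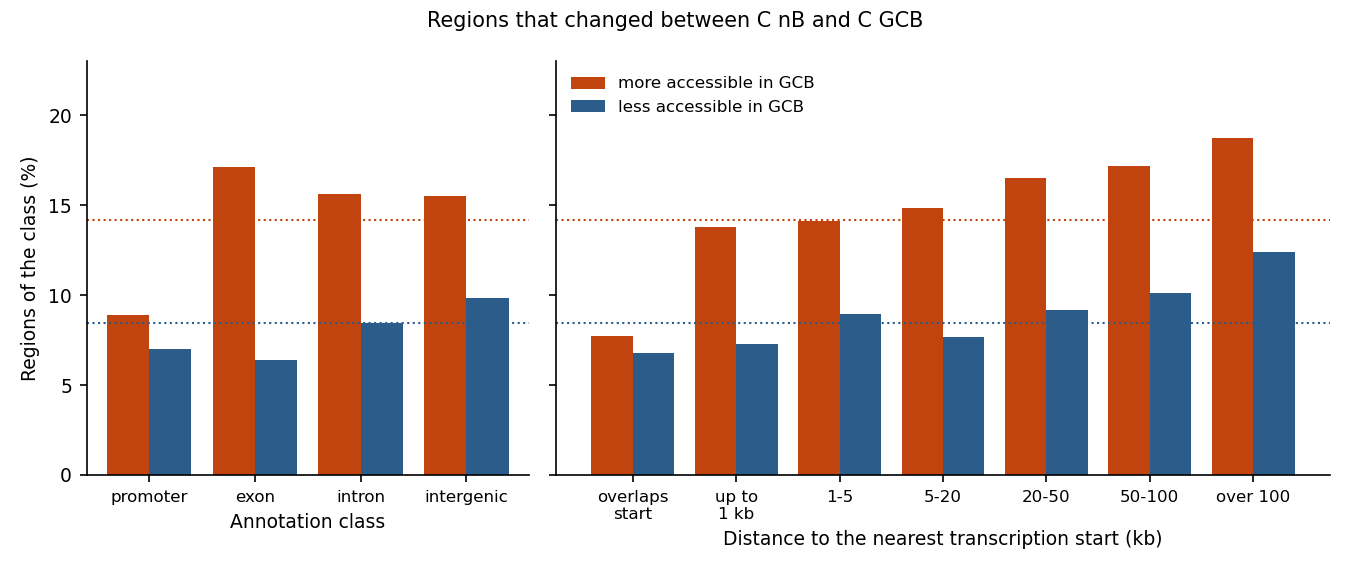
Percent of regions that were more (red) or less (blue) accessible in C GCB than in C nB, by annotation class (left) and by distance to the nearest transcription start in kb (right). Dotted lines mark the shares of all regions, 14.2% and 8.47%. Opened regions rise from 7.72% of those overlapping a start to 18.7% of those over 100 kb away.

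Opened shares rose with distance from the nearest transcription start, with level not held equal. Regions overlapping a start had a C nB median of 39.2 RPPM, and those over 100 kb away 3.01 RPPM. Of the 11672 regions overlapping a start, 7.72% opened and 6.79% closed. The shares opened and closed were 14.1% and 8.93% at 1 to 5 kb, 14.8% and 7.65% at 5 to 20 kb, 16.5% and 9.15% at 20 to 50 kb, and 18.7% and 12.4% in the 4064 regions over 100 kb away. Closed shares did not rise at every step. Upstream of the nearest start, 3591 of 23629 regions opened and 2156 closed, and downstream 4935 of 30876 opened and 2654 closed. The shares of reads were compared over libraries. Promoter regions took 52.9%, 53.3% and 53.2% of the reads in C nB and 44.6% and 47.8% in C GCB. Both GCB libraries lay below all nB libraries, and the exact two-sided permutation test gave p = 0.10, the smallest that 3 against 2 libraries allow (adjusted p = 0.12 over 11 classes and distances). Counting reads outside mitochondrial DNA alone, the shares were 55.0%, 55.6% and 55.3% against 48.8% and 52.4%. Over all reads in regions, the mean share fell by 6.93 percentage points for annotated promoters and by 2.17 points for regions within 1 kb of a start, which include the 2 mitochondrial regions. Without mitochondrial reads it fell by 4.74 and 4.63 points.

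The direction at promoters depended on their level. Among promoters with a mean of 2 to 5 RPPM over the groups, 25.7% of 1359 opened and 4.27% closed. Between 20 and 50 RPPM, 3.03% of 4976 opened and 8.84% closed. Above 50 RPPM, 0.325% of 3695 opened and 2.63% closed. Weakly accessible promoters therefore mostly opened when they changed, and strongly accessible ones mostly closed. Outside promoters, low regions also opened more often than they closed, 18.9% against 6.26% of 16401 at 2 to 5 RPPM and 924 against 171 of 11403 under 2 RPPM. Their shares at 20 to 50 RPPM were 12.0% opened and 13.8% closed of 4389 regions, and above 50 RPPM 7.08% and 3.60% of 833.

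Sequence was examined next, through short motif cores searched on both strands in the 65891 regions on named chromosomes. The octamer of Oct-2, a B cell POU factor, was searched as ATGCAAAT. It was in 12.6% of opened regions, 4.51% of closed regions and 4.79% of uncalled regions, against 5.87% of all. The core GGAAGT of PU.1, an ETS factor, was in 36.5% of opened, 56.7% of closed and 43.0% of uncalled regions. Over 1 kb from a start, these shares were 13.7%, 4.72% and 5.10% for Oct-2 and 37.0%, 58.7% and 40.0% for PU.1. A match describes the letters of the window and is not a bound site. The RUNX core TGTGGTTT was in 9.80% of closed and 6.22% of opened regions, and the E2A core CAGCTG was in 32.6% and 34.8%. The other cores searched were GAAAC (IRF4), TGACTCA (AP-1), CCACACCC (KLF), GGGACTTTC (NF-kappaB), CCACCAGGG (CTCF), CTATTTTTA (MEF2), TGTTTAC (FOXO) and CCCTGGGA (EBF1). The IRF4 core is short enough to be in 72.6% of all regions. Within bins of similar region width, the averaged shares were 12.7% of opened and 4.28% of closed regions for Oct-2 and 37.1% and 53.4% for PU.1.

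**Figure D2:**
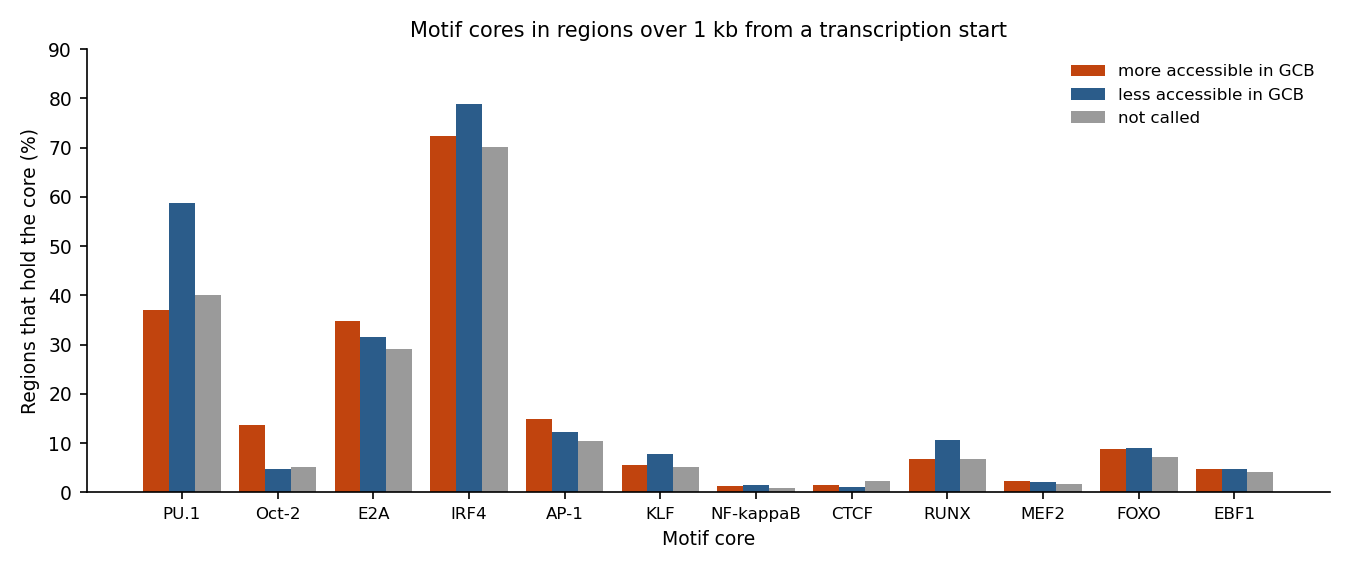
Percent of regions over 1 kb from a transcription start that hold each of 12 motif cores on either strand, for regions more accessible in C GCB (red), less accessible (blue) or not called (gray). The Oct-2 octamer is in 13.7% of opened and 4.72% of closed regions, and the PU.1 core in 37.0% and 58.7%.

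The following windows from mm9 show the octamer, in capitals and read on the strand that holds it. They were picked for holding it, and regions without it are not shown. They come from the only 3 of the 10 most opened regions that hold it, and from opened regions of 3 germinal center genes.
Pxdc1: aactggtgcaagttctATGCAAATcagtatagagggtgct
Nap1l1: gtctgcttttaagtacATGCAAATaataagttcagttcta
Eef2kmt: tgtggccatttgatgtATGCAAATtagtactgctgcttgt
Bcl6: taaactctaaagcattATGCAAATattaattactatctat
Gcsam: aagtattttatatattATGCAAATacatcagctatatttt
Rgs13: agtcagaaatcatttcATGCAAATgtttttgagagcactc
They lie at chr13:34628783-34628822 (minus strand), chr10:110845930-110845969 (plus), chr16:5496261-5496300 (minus), chr16:24134953-24134992 (minus), chr16:45623736-45623775 (minus) and chr1:146016225-146016264 (minus).

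The PU.1 core, in capitals, is shown in the same way for the most closed region of all and for regions of naive B cell genes. These windows too were picked for holding the core.
Itga9: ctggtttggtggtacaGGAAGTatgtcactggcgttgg
Klf2: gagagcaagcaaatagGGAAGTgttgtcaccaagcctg
Klf3: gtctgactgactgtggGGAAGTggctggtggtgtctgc
Foxp1: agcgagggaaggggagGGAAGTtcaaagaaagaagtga
Ccr7: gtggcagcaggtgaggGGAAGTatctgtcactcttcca
They lie at chr9:118632154-118632191 (plus), chr8:74884122-74884159 (plus), chr5:65255973-65256010 (minus), chr6:99272706-99272743 (plus) and chr11:98997870-98997907 (minus). Genes are those with the nearest transcription start, which need not be the genes a region acts on.

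The strongest openings lay outside annotated promoters. All 10 regions with the largest increase, among called regions whose groups did not overlap and reached 5 RPPM, were intronic or intergenic. Promoters held only 13.5% of all opened regions. The first, at chr4:154823215-154823909 near Cfap74, had 0.731, 0.188 and 0.186 RPPM in C nB and 91.5 and 113 RPPM in C GCB, a log2 difference of 6.26 (SE 0.31, limma adjusted p = 1.5e-14). An intronic region at chr11:110300906-110302005 near Map2k6, a kinase of the p38 pathway, had 1.22, 1.51 and 0.931 RPPM in C nB and 117 and 108 RPPM in C GCB. Near Nap1l1, a histone chaperone, the region at chr10:110845775-110846982 had 2.68, 2.07 and 1.30 RPPM against 136 and 122 RPPM. These sites were low in every C nB library and strongly accessible in both C GCB libraries. The other 7, near Pxdc1, Cybrd1, Kcnt2, C030016D13Rik, Eef2kmt, Clstn2 and Lrrc1, had log2 differences between 5.39 and 5.79.

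The most closed region was in an intron of Itga9, which encodes an integrin alpha chain, at chr9:118631944-118632512. It had 25.8, 29.4 and 24.6 RPPM in C nB and 0.440 and 0.468 RPPM in C GCB, a single read in each, with a log2 difference of -4.24 (SE 0.32, limma adjusted p = 3.7e-11). A region at chr12:114662533-114663461 had 123, 87.6 and 95.1 RPPM in C nB and 3.52 and 10.8 RPPM in C GCB. It lies 1.59 kb from the GENCODE start of Ighm, the mu heavy chain gene. The nearest start in the deposited annotation has no name and is 3.31 kb away. Class switching deletes the mu constant region and flanking DNA from the rearranged allele of switched cells, and its part in the values of this region was not tested. At Lrrc16a, the intronic region at chr13:24322299-24323455 had 77.2, 73.3 and 71.7 RPPM against 5.28 and 4.68 RPPM. The other 7, among them Fxyd3, Grxcr1, Celf4, F630028O10Rik and Serp2, had log2 differences between -3.82 and -3.56.

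Genes of the germinal center program gained accessibility at many of their regions. The 149 regions nearest to the 19 of 20 listed genes that had any included 44 opened (29.5%, against 14.2% of all regions) and 14 closed (9.40%, against 8.47%). Of their 19 promoters, 4 opened and 3 closed, against 8.88% and 6.99% of all promoters. The promoter of Gcsam, which encodes a germinal center signaling adaptor, had 0.244, 0.565 and 0.931 RPPM in C nB and 25.5 and 16.4 RPPM in C GCB. Its log2 difference was 3.79 (SE 0.31, limma adjusted p = 2.3e-10), and 6 of its 7 regions opened. Pdcd1lg2, which encodes the PD-1 ligand PD-L2, had a promoter at 1.95, 0.942 and 1.12 RPPM against 17.6 and 22.0 RPPM. In both genes the promoter itself was low in nB.

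Other genes of the program had promoters accessible in both cell types and opened regions elsewhere. At Bcl6, the promoter closed, from 58.7, 53.5 and 49.3 RPPM in C nB to 18.5 and 21.5 RPPM in C GCB, a log2 difference of -1.38 (SE 0.18, limma adjusted p = 4.7e-07). A region 146 kb upstream of it, at chr16:24134546-24135399, opened from 0.244, 0.754 and 0.558 RPPM to 50.6 and 46.4 RPPM, a log2 difference of 5.04 (SE 0.31, limma adjusted p = 6.3e-13). The promoter and the distant region of this gene thus moved in opposite directions. The 200 bases at the center of the distant region, at chr16:24134872-24135071 on the plus strand, hold 1 octamer, in capitals as its reverse complement.
Bcl6 upstream: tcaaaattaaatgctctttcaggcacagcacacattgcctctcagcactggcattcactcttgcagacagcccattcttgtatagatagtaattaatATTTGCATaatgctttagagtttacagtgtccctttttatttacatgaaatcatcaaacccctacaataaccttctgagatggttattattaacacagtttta
At S1pr2, a receptor that confines cells to the germinal center, a region 3.09 kb upstream went from 1.22, 0.188 and 0.931 RPPM to 32.5 and 29.5 RPPM. Its promoter stood at 14.4 ± 1.8 RPPM in C nB and 26.2 ± 4.0 RPPM in C GCB and was not called. An exonic region of Fas, the death receptor, went from 1.71, 0.565 and 0.558 RPPM to 19.8 and 20.6 RPPM. Basp1 opened both at an intronic region, from 1.22, 1.70 and 1.49 RPPM to 52.3 and 40.8 RPPM, and at the region annotated as its promoter, from a mean of 13.3 to 34.4 RPPM. The start nearest to that region is the one of Gm5468, and it is 1 of the 4 opened promoters counted for the program. Lmo2 and Cd83 had closed promoters.

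**Figure D3:**
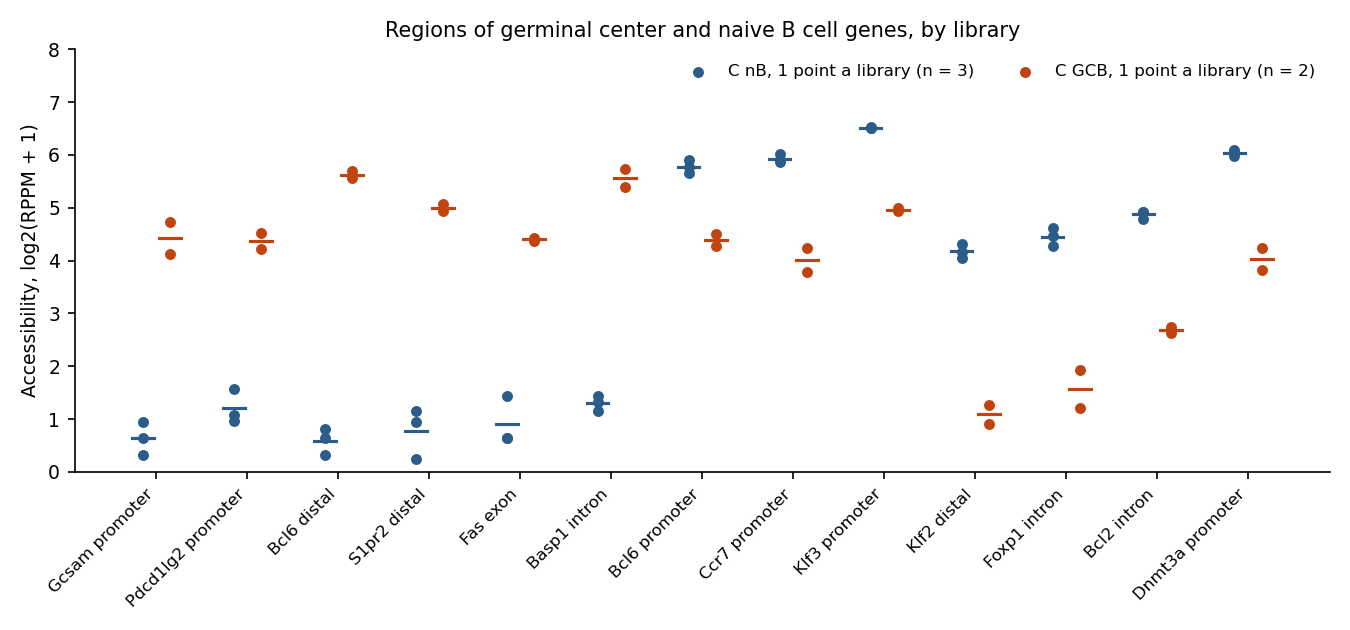
Accessibility as log2(RPPM + 1) of 13 regions of germinal center and naive B cell genes, with 1 point for each C nB (blue, n = 3) and C GCB (red, n = 2) library and a bar at the group mean. The regions were named by a rule that used these values. Bcl6 appears with its opened distant region and its closed promoter.

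Genes of naive and quiescent B cells moved the other way. Of the 372 regions nearest to the 21 listed genes, 116 closed (31.2%, against 8.47% of all) and 14 opened (3.76%, against 14.2%). Closed regions outnumbered opened ones for 16 of the 21 genes, and 6 of 20 promoters closed and none opened, against 6.99% and 8.88% of all promoters. The promoter of Ccr7, the receptor that draws B cells to the T cell zone border, went from 57.0, 64.1 and 59.0 RPPM in C nB to 12.8 and 17.8 RPPM in C GCB, a log2 difference of -1.92 (SE 0.19, limma adjusted p = 7.4e-09), and 9 of its 14 regions closed. The promoter of Klf3, a Kruppel-like repressor, went from 91.1, 89.9 and 90.6 RPPM to 29.5 and 30.9 RPPM. Gpr183, Fcer2a (CD23) and Il10ra also had closed promoters, with log2 differences of -1.61, -1.50 and -1.69.

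Several genes of this list closed at distant regions with a promoter that was lower in C GCB by less than 1 on the log2 scale and so not called. At Klf2, a quiescence factor, 8 of 18 regions closed. The largest change, 40.9 kb from its start, was from 19.0, 17.0 and 15.4 RPPM to 0.880 and 1.41 RPPM, while the promoter stood at 78.3 ± 7.3 RPPM in C nB and 48.7 ± 7.3 RPPM in C GCB. At Foxp1, a forkhead repressor, 29 of 98 regions closed and 2 opened. Bcl2, the survival factor, had 6 of 12 regions closed, among them an intronic region that went from 26.6, 29.4 and 29.4 RPPM to 5.72 and 5.15 RPPM. Its promoter stood at a mean of 70.4 RPPM in C nB and 36.4 RPPM in C GCB, a log2 difference of -0.94 (limma adjusted p = 4.8e-07) just under the limit for a call, and was called closed in KO. Cd38 had 5 of 12 and S1pr1 7 of 33 regions closed. Fos, an immediate early gene in the same list, had 2 opened and 2 closed of 16 regions, and Jun, another, had 1 opened and 0 closed of 4. The largest opening at Fos was from 3.65, 5.09 and 4.47 RPPM to 55.0 and 97.0 RPPM. The promoters of Fos and Jun were lower in C GCB, with log2 differences of -0.66 and -0.44, and not called.

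**Figure D4:**
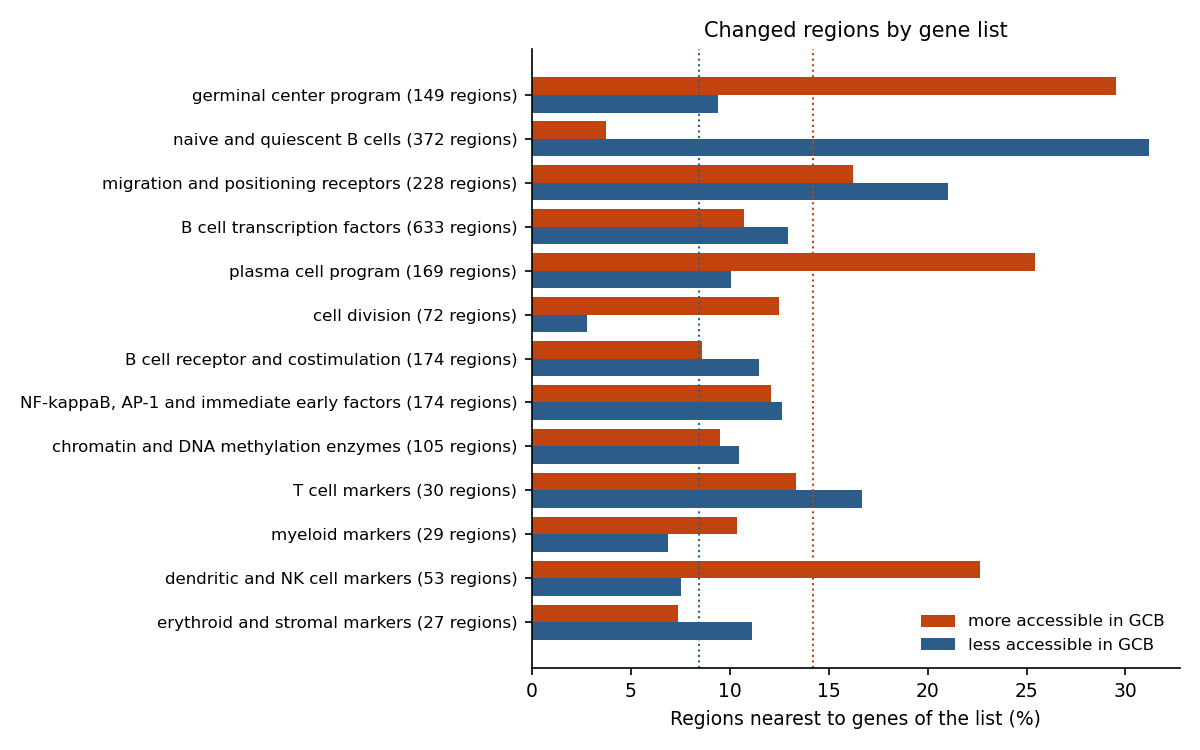
Percent of the regions nearest to the genes of each list that were more (red) or less (blue) accessible in C GCB, with the number of regions in parentheses. Dotted lines mark the shares of all regions, 8.47% for closed and 14.2% for opened. Naive and quiescent B cell genes have 31.2% closed, and germinal center genes 29.5% opened.

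Receptors for migration and positioning had 37 opened (16.2%, against 14.2% of all regions) and 48 closed (21.1%, against 8.47%) of 228 regions. Rgs1, a regulator of chemokine signaling, opened at its promoter from 5.60, 5.65 and 5.40 RPPM to 18.9 and 19.2 RPPM and at 8 of 14 regions. Itgb7, an integrin chain for mucosal homing, closed at its promoter from 10.5, 9.23 and 12.3 RPPM to 2.64 and 1.41 RPPM. Arhgef1, an exchange factor downstream of S1PR2, closed from 51.2, 37.5 and 41.3 RPPM to 9.68 and 13.6 RPPM. Cxcr4 had 7 opened and 5 closed of 40 regions, and Cxcr5 1 opened and 5 closed of 10.

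Among B cell transcription factors, 68 of 633 regions opened (10.7%, against 14.2% of all regions) and 82 closed (13.0%, against 8.47%). Of their 26 promoters, those of Bcl6 and Ebf1 closed and none opened, against 6.99% and 8.88% of all promoters. Plasma cell genes had 43 opened (25.4%, against 14.2%) and 17 closed (10.1%, against 8.47%) of 169 regions, but 22 of those opened were nearest to Zbtb20. Zbtb20 had the most opened regions of any gene, 22 of 37. A region annotated as its promoter, 31.2 kb from its GENCODE start, closed from 15.1, 16.2 and 17.1 RPPM to 2.64 and 2.81 RPPM. Prdm1, which encodes BLIMP-1, had 13 closed of 32 regions. The promoter of Igj, the antibody J chain gene, opened from 0.731, 1.13 and 1.30 RPPM to 19.8 and 25.3 RPPM.

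Of 23 promoters of cell division genes, 2 opened (Tyms and E2f8) and none closed, against 8.88% and 6.99% of all promoters, with a median log2 difference of 0.07. For B cell receptor and costimulation genes, 15 of 174 regions opened (8.62%, against 14.2% of all regions) and 20 closed (11.5%, against 8.47%). Cd80 opened at its promoter from 3.17, 2.26 and 2.42 RPPM to 11.4 and 13.6 RPPM, and H2-Aa and Cd22 closed. NF-kappaB, AP-1 and immediate early factors had 21 opened (12.1%, against 14.2%) and 22 closed (12.6%, against 8.47%) of 174 regions, with Relb opened and Rela, Egr3 and Ier2 closed at their promoters. Chromatin and DNA methylation enzymes had 10 opened (9.52%, against 14.2%) and 11 closed (10.5%, against 8.47%) of 105 regions. The promoter of Dnmt3a, a de novo DNA methyltransferase, closed from 67.0, 65.4 and 61.8 RPPM to 13.2 and 17.8 RPPM, a log2 difference of -2.01 (SE 0.19, limma adjusted p = 1.6e-09). That of Dnmt3b stood at 37.5 ± 0.62 and 26.6 ± 2.1 RPPM and was not called. Uhrf1, a partner of the maintenance enzyme, opened.

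Markers of other cells were read in the same way. T cell markers had 4 opened (13.3%) and 5 closed (16.7%) of 30 regions, against 14.2% and 8.47% of all regions, and 3 promoters whose summed level was 29.7, 26.6 and 28.5 RPPM in C nB and 21.1 and 24.8 RPPM in C GCB, with Lck the highest in GCB at 10.2 RPPM. Regions not counted among those 3 promoters reached higher levels. The regions nearest to Cd3d, Cd3e and Cd5 closed, with log2 differences of -2.13, -1.37 and -1.84. Cd3d fell from a mean of 62.3 RPPM in C nB to 13.7 RPPM in C GCB, and Cd3e from 3.02 to 0.660 RPPM. The Cd5 region, which overlaps the start of Cd5, fell from 24.45 to 6.12 RPPM. A region nearest to Cd4 opened from 0.867 to 11.3 RPPM, with a log2 difference of 2.73. Myeloid markers had 3 opened (10.3%) and 2 closed (6.90%) of 29 regions. Dendritic and NK cell markers had 12 opened (22.6%) and 4 closed (7.55%) of 53. An opened region was found for 6 of 9 of these genes, against 4712 of all 15301 genes nearest to a region. Erythroid and stromal markers had 2 opened (7.41%) and 3 closed (11.1%) of 27. Of the regions nearest to the NK cell genes, 1 of 4 opened at Eomes and 1 of 4 at Prf1. At Klrb1c 5 opened and 2 closed of 22, and at Tbx21 2 opened and 1 closed of 7. A dump channel with antibodies to CD90.2, CD11b, CD11c and Ly6-G was used against autofluorescent cells. The part of other cells in these values was not tested.

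Neighboring regions and genes with many called regions were counted next. Of 15301 genes nearest to a region, 4712 had an opened region, 2680 a closed one and 758 both. After Zbtb20, the genes with most opened regions were Etv6 (18 of 26), Fndc3a (18 of 32), Fut8 (16 of 42), Hivep3 (15 of 35), Mucl1 (14 of 19), Gm14005 (13 of 22), Lmo7 (12 of 13), Osbpl3 (12 of 15) and Daam1 (11 of 14). After Foxp1, those with most closed were Lpp (22 of 64), Chrm3 (13 of 16), Prdm1 (13 of 32), Rasgef1b (13 of 33), Cobll1 (12 of 15), Stk17b (12 of 25), Btg1 (12 of 62), 5031425F14Rik (11 of 18) and Fam43a (11 of 18). Such counts also follow how many regions a gene has, and the Mucl1 regions lie on unplaced sequence, where read placement was not tested. Runs of at least 5 neighboring regions called in 1 direction numbered 163 for opened and 49 for closed regions. The longest closed runs were 11 regions at Celf4 and 11 over 153 kb at Chrm3, followed by 9 at Ldlrad3, 8 at Ebf1 and 8 at Entpd1. The Ebf1 run summed to 126, 94.4 and 102 RPPM in C nB and 14.1 and 9.37 RPPM in C GCB. The opened run of 17 regions at Zbtb20 summed to 25.3, 24.5 and 21.2 RPPM against 189 and 196 RPPM. The longest opened run, 31 regions over 1819 kb of chromosome 2, lies in a cluster of near-identical predicted genes such as Gm14391 and Gm14288, where reads can be placed on the wrong copy, and is uncertain.

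The KO libraries were set beside the C comparison. Their levels do not enter the C log2 differences, but the spread behind the C calls was estimated over all 16 libraries, KO included. From the 5 C libraries alone, 9747 regions opened and 6016 closed. In KO nB (n = 2) and KO GCB (n = 4) fitted alone, 9074 regions (13.7%) opened and 4085 (6.17%) closed. Of the regions opened in C, 99.9% were higher in KO GCB and 7090 were called, with a median log2 difference of 1.77 against 1.72 in C. Of the regions closed in C, 98.6% were lower in KO GCB and 3042 were called, with a median of -1.21 against -1.43. Over all regions, 55.3% were higher in KO GCB. The distant Bcl6 region rose from 0.690 to 39.8 RPPM in KO, and the Ccr7 promoter fell from 58.8 to 12.9 RPPM. The difference between the C and KO changes was called in 0 of 66177 regions (0.0%) by limma, the only tool run for it, with 4107 at an unadjusted p under 0.05 and a smallest adjusted p of 0.52.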

How the data were processed

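ATAC-seq libraries of C nB (n = 3) and C GCB (n = 2) were compared. Per the submitters' notes, reads were mapped to mm9 and processed with Bowtie 1.1.1, Picard 1.127, MACS2 2.1.0.20140616 and edgeR 3.12.1. The authors called peaks in each sample, took their union, and deposited for each region its RPM, the reads scaled to the library's total in regions (here RPPM). Their columns of fold changes, p-values and FDR were not used. All RPPM values were whole multiples of 1 read (100%, within 0.01 of a read), so reads were recovered. Of the series' columns, 0 belonged to samples outside it. The labels list 17 samples, and 16 had values. Depth is given with the results. Reads were amplified by PCR with no molecular identifiers and are not independent, so floors cover counting error only.

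The test was limma 3.58.1 (R 4.3.3) on log2(RPPM + 1), with 1 mean for each of the 6 groups of all 16 libraries, a mean-variance trend and Benjamini-Hochberg adjustment over 66177 regions. Calls needed a log2 difference of at least 1 and an adjusted p no higher than 0.01. P-values measure the spread between these libraries. On simulated data the fit and the recovery of changed regions were checked, with no outcome reported here. Alternatives were other pseudocounts, filters and scalings, edgeR 4.0.16, DESeq2 1.42.0, limma-voom on recovered reads, and each library left out.

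Classes follow the table's annotation, with promoter before exon, intron and intergenic, and genes are those of the nearest start, except that the promoter of a listed gene is the region the table annotates as such. Such a region can lie far from the gene's GENCODE start, as for Zbtb20 (31.2 kb), Lmo2 (11.2 kb), Pdcd1lg2 (11.0 kb) and Relb (9.54 kb). Named regions were the 10 most opened and 10 most closed with groups that did not overlap and a higher mean of at least 5 RPPM, the genes with most changed regions, every gene of the lists, the most changed called region of each germinal center and naive B cell gene, and the 5 longest runs in each direction. Sequence came from the mm9 (NCBIM37) genome and gene names from the deposited annotation, with the start of Ighm taken from GENCODE. The comparison, lists and rules were chosen with earlier results of these data known. Some members of the lists and 1 list are not reported here, though the counts of lists that are given include all their members.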

Additional observations from a re-analysis of the deposited data

Results flagged for a closer look

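At the promoter of Mcm6, which encodes a subunit of the replicative helicase, the C and KO changes ran in opposite directions with no overlap between groups in either genotype. Such separation was common. In C, GCB lay wholly above nB in 33.8% of all regions and wholly below in 30.6%. The log2 difference of the Mcm6 promoter was 0.22 in C and -0.17 in KO, a gap of 0.39. The interaction test of limma did not call this promoter (adjusted p = 0.80), and neither change was called. It was found among 276 named regions.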

How the results depend on the processing

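No paired analysis was possible because the C nB and C GCB libraries share no animal, pool or replicate number in the labels. With a pseudocount of 5 RPPM, 4324 regions opened and 2488 closed, 689 and 521 of them promoters. The shares opened were then 4.81% of promoters, 7.09% of introns and 6.82% of intergenic regions, and the shares closed 3.64%, 3.49% and 4.40%. Over other tools, scalings and filters, opened regions ranged from 7418 to 11121 and closed from 4882 to 7053, a pseudocount of 0.1 RPPM gave 8947 and 4525, and an adjusted p limit of 0.05 gave 11232 and 6636. The median log2 difference of promoters was -0.15 at a pseudocount of 5 RPPM, -0.22 with TMM scaling, DESeq2 and both edgeR tests, -0.076 after quantile normalization and -0.12 with chrM left out. Under quantile normalization the intergenic median was -0.075. With regions within 1 kb of a start in place of annotated promoters, the share of reads fell by 2.17 percentage points, and with annotated promoters it fell by 6.93. Mitochondrial regions count in the first alone, and without them, an alternative chosen after seeing the data, the share within 1 kb fell by 4.63. Leaving out each library in turn gave 6775 to 8392 opened and 3868 to 5096 closed regions. The share closed was then 5.26% to 7.46% of introns and 6.38% to 8.82% of intergenic regions, lowest without C GCB replicate 2. The promoter median was -0.21 to -0.15. No region changed from opened to closed under any alternative, and 71 of the 98 called named regions kept their call under all 18 refits.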

Other observations

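Called regions were counted by chromosome, where 14.2% of all regions opened and 8.47% closed. On chromosome 19, 8.21% of 2167 regions opened and 12.5% closed, and on chromosome 11, 10.2% of 4899 opened and 12.4% closed. On chromosome 12, 18.9% of 2745 regions opened and 7.65% closed. Of the regions on sequence not placed on chromosomes 1 and 8, 70.0% of 70 and 71.9% of 32 opened. Random and unplaced sequence took 0.394%, 0.346% and 0.328% of the reads in C nB and 0.678% and 0.710% in C GCB. Such sequence is often repeated, and placement of its reads was not tested.

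In bone marrow plasma cells of C mice (n = 3), a later stage, the regions opened in GCB had a median of 4.62 RPPM, between 1.40 RPPM in nB and 8.88 RPPM in GCB. The closed regions had a median of 3.29 RPPM, against 14.5 RPPM in nB and 4.25 RPPM in GCB. On the log2 scale, plasma cells were nearer to GCB than to nB in 54.1% of opened and 69.0% of closed regions.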
